A study of Rattus norvegicus with 47 samples.

Results

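Sox4, Gpc3, Afp, Igf2 and H19 are genes that are active in the fetal liver and that are followed as oncofetal genes, that is fetal genes switched on again in tumours. They were followed here in chemically induced lesions of the rat liver. All probe sets with 1 of these 5 gene symbols were taken, which gave 15 of the 31042 probe sets on the array, for 5 of the 14217 genes it names. Sox4 had 7 probe sets, Igf2 had 4, Gpc3 had 2, and Afp and H19 had 1 each. They were chosen by symbol, with no threshold on measured values.

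Every rat was a male Han-Wistar animal (strain given as Wistar), 4 weeks old at the start. Each received a single dose of the liver carcinogen N-nitrosomorpholine (NNM, 250 mg per kg body weight), recovered for 3 weeks and then took the tumour promoter phenobarbital (50 mg per kg per day) in the drinking water for up to 17 months. The surrounding liver that served as control came from the same treated rats, so carcinogen and promoter are shared by every group compared. RNA was hybridised to 47 Affymetrix rat arrays, 1 sample each. The frozen samples, homogenized as tissue pieces, comprised 7 of surrounding liver, 5 nodules, 6 adenomas, 4 carcinomas, and 4 further carcinomas whose group label names a beta-catenin mutation (called beta-catenin carcinomas). The formalin-fixed, paraffin-embedded (FFPE) samples, cut out by laser microdissection, comprised 4 of surrounding liver, 9 foci (small altered groups of hepatocytes) and 5 adenomas. These 44 arrays came from 7 animals with several lesions each, and the frozen adenomas came from 2 of them, so p-values measure the spread among lesions more than among rats. The other 3 arrays, from a source called C43-Normal, entered no comparison. All values are deposited log2 levels. Frozen and FFPE arrays were treated apart, and levels were compared only within a probe set.

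Sox4 encodes a transcription factor of the SRY-related HMG-box family that acts in progenitor cells and is often raised in liver cancer. Gpc3 encodes glypican-3, a heparan sulfate proteoglycan anchored in the cell membrane, and Afp encodes alpha-fetoprotein, the main plasma protein of the fetus; both serve as markers of human hepatocellular carcinoma. Igf2 encodes the fetal growth factor insulin-like growth factor 2 and is expressed from the paternal allele, while H19 is a long non-coding RNA next to it that is expressed from the maternal allele. In the adult rodent liver all of these are low or silent in hepatocytes, and Afp is turned down after birth by repressors such as Zhx2, Zbtb20 and Zfhx3.

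The start regions of Afp and Gpc3 are shown because the 2 genes, which are used as tumour markers side by side, have windows of opposite make-up. Each is the 150 bases before the annotated start on the minus strand, from RefSeq on the GRCr8 rat assembly. Capitals mark GTTAAT and GTTAAC (letters of the half-site of the liver factor HNF1), TATAAA, and GGGCGG, searched on both strands, where GGGCGG on the other strand reads CCGCCC. No 2 matches overlapped.
Afp, chr14:17875646-17875795: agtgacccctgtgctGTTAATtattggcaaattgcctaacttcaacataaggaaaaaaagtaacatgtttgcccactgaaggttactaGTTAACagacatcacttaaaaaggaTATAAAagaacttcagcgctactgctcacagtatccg
Gpc3, chrX:137157599-137157748: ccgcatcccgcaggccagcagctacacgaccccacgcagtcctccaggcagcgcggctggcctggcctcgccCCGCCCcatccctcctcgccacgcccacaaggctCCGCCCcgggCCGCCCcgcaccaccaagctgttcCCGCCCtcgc

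The Afp window was 38.0% G and C and held 1 GTTAAT, 1 GTTAAC and 1 TATAAA, which ended 130, 57 and 32 bases before the start. The Gpc3 window was 76.7% G and C, against a median of 52.7% over 33469 rat promoters, and held 4 GGGCGG matches and no match to the other letters. In the same 150-base window, GTTAAT was found in 3.74% of all promoters, GTTAAC in 1.2%, TATAAA in 8.0% and GGGCGG in 26.02%. Igf2 had entries for 2 starts, chr1:207253981-207254130 with 61.3% G and C and chr1:207250476-207250625 with 65.3%, and only the second held a match, 1 GGGCGG. A match describes letters in a window and no measured binding. H19 and Sox4 are named only.

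The microRNAs of the H19 and Igf2 locus are shown because these small RNAs are cut from the 2 transcripts themselves, and the arrays read only the host RNAs. Capitals mark the seed, bases 2 to 8.
rno-miR-675-5p (H19): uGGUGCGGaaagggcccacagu
rno-miR-675-3p (H19): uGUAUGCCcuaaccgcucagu
rno-miR-483-5p (Igf2): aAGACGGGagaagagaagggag
rno-miR-483-3p (Igf2): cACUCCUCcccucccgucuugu
The 4 seeds differ from one another. In the RefSeq annotation H19 and Igf2 lie on chromosome 1. The 1 annotated gene that starts between their start positions is Mir675, whose microRNAs are cut from H19 itself. Afp lies on chromosome 14 directly beside Alb, with 0 annotated genes between. Gpc3 lies on chromosome X and Sox4 on chromosome 17.

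Some labels did not match marker genes. Glul (glutamine synthetase) and Lgr5 are target genes of beta-catenin, and in frozen surrounding liver they measured 9.91 to 10.80 and 3.11 to 3.70. Replicate 1 of the beta-catenin carcinomas (animal 10) had Glul at 9.26 and Lgr5 at 3.08, whereas the other 3 had Glul at 12.96 to 13.32. Conversely, replicates 1 and 3 of the other carcinomas (animals 10 and 21) had Glul at 13.02 and 12.69 and Lgr5 at 5.84 and 6.17. Gstp1, the usual marker of altered foci, measured 13.67 to 13.89 in the foci against 7.15 to 12.17 in FFPE surrounding liver. The FFPE adenoma replicate 4 is given as surrounding tissue in its source name but as an adenoma in its group label. In bulk tissue, fewer cells of a type and less RNA per cell cannot be told apart.

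Sox4 was the one gene of the 5 that rose in every kind of adenoma and carcinoma and in the foci. For probe set 1383137_at, which had the highest mean of the 7 in frozen tissue, surrounding liver measured 8.71 at the lowest, 9.01 at the median and 9.48 at the highest. The 5 nodules measured 9.83, 9.63, 9.50, 10.58 and 9.70. The 6 adenomas ranged from 10.43 to 11.27 with a median of 10.79. All nodules and all adenomas therefore lay above all 7 surrounding samples, nodule replicate 3 by the smallest step, and only nodule replicate 4 reached the range of the adenomas. The carcinomas measured 9.87, 10.37, 10.23 and 10.81, and the beta-catenin carcinomas measured 10.42, 10.39, 10.67 and 11.09. Each of these 8 tumours was above every surrounding sample too, and each lesion of the 4 groups was above the surrounding liver of its own animal. Of all probe sets, 1.01% lay wholly above the surrounding liver in the nodules, 3.42% in the adenomas, 4.32% in the carcinomas and 3.22% in the beta-catenin carcinomas.

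**Figure D1:**
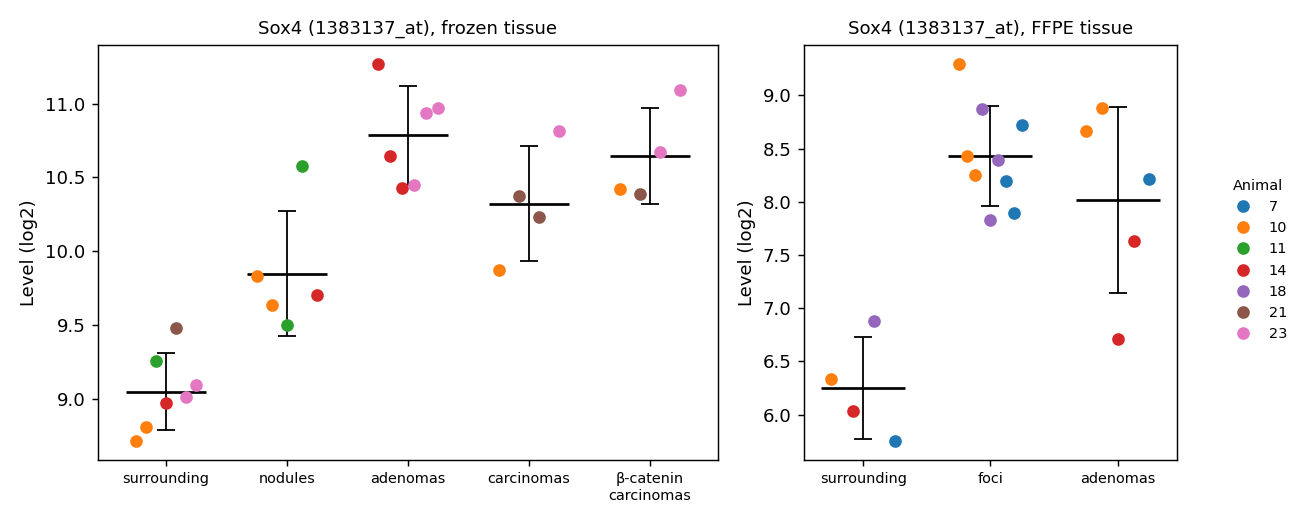
Level of Sox4 (probe set 1383137_at, log2) in every array of the groups, frozen tissue on the left and FFPE tissue on the right, coloured by animal; bars give the mean and SD of each group. Adenomas at 10.43 to 11.27 sit above surrounding liver at 8.71 to 9.48 with the nodules between, and in FFPE tissue the 9 foci at 7.83 to 9.30 sit above all 4 surrounding samples.

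Changes were estimated with limma over all probe sets with the animal as a block, and adjusted p-values are Benjamini-Hochberg over all 31042. By this test Sox4 1383137_at rose by 1.66 ± 0.19 (SE, log2) in the adenomas (n = 6 against 7), or 3.17-fold, at an adjusted p of 1.61e-05. It rose by 1.28 ± 0.21 in the carcinomas (n = 4, 2.43-fold, adjusted p = 0.000758) and by 1.57 ± 0.20 in the beta-catenin carcinomas (n = 4, 2.98-fold, adjusted p = 3.28e-05). The nodules differed by 0.84 ± 0.20 (n = 5, 1.78-fold), which did not pass at an adjusted p of 0.0987. Few probe sets of any gene passed in the nodules, 6 in all or 0.0193%, and none of the 15 did, with 5 of them under an unadjusted p of 0.05 in limma. In the adenomas 18.1% of all probe sets passed, in the carcinomas 7.85% and in the beta-catenin carcinomas 12.5%, against 6, 4 and 6 of the 15 examined here. All probe sets that rose made up 9.49%, 3.26% and 5.66%, and the Sox4 probe sets that rose numbered 5, 4 and 5 of 7. The 7 Sox4 probe sets read the same gene and are not independent, so the counts alone do not set the 5 genes apart. Leaving out any 1 array kept the Sox4 1383137_at call in each tumour group, with the adenoma value between 1.56 and 1.78. Leaving out the carcinomas whose Glul level went against the label kept it as well: the value was 1.40 without carcinoma replicate 1, 1.32 without carcinoma replicate 3, and 1.55 in the beta-catenin carcinomas without replicate 1.

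Between lesion types no difference of Sox4 1383137_at passed. Adenomas differed from nodules by 0.83 ± 0.23, which did not pass at an adjusted p of 0.155, but did when the animal was not a block, at 0.94 with an adjusted p of 0.0187. Carcinomas differed from adenomas by -0.38 ± 0.24 (adjusted p = 0.387), and beta-catenin carcinomas from the other carcinomas by 0.29 ± 0.22. The order of the frozen group means was surrounding liver, nodules, carcinomas, beta-catenin carcinomas and adenomas. Surrounding liver and nodules did not overlap, and every later pair of neighbours in that order did.

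Microdissected tissue gave the same direction. FFPE surrounding liver measured 6.33, 6.03, 6.88 and 5.75 for Sox4 1383137_at. The 9 foci ranged from 7.83 to 9.30 with a median of 8.39, and the 5 adenomas measured 8.66, 8.88, 6.71, 7.63 and 8.22. All foci lay above all surrounding samples, as did 0.912% of all probe sets, and adenoma replicate 3 of animal 14 was the only lesion inside the surrounding range, though above the surrounding liver of its own animal. Sox4 rose by 1.95 ± 0.28 in the foci (n = 9 against 4, 3.85-fold, limma adjusted p = 6.29e-05) and by 1.88 ± 0.31 in the FFPE adenomas (n = 5, 3.67-fold, adjusted p = 0.00063). In these comparisons 1.87% and 1.24% of all probe sets passed and 1.15% and 0.77% rose. Of the 15 examined here 4 rose in the foci and 3 in the FFPE adenomas, all of them Sox4 probe sets. FFPE adenomas and foci differed by -0.07 ± 0.29 for this probe set, and none of the 15 passed in limma between them at an adjusted or an unadjusted p of 0.05.

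Other gene groups moved in some, but not all, of the lesion types in which Sox4 rose. Of 23 proliferation genes 22 rose in the frozen adenomas, 6 in the carcinomas and 17 in the beta-catenin carcinomas, against 1 in the foci and 0 in the FFPE adenomas. Over all genes, 14.1%, 3.95%, 6.85%, 1.6% and 1.16% rose in these comparisons, in the same order. Of 6 cholangiocyte markers 2 rose in the frozen and 2 in the FFPE adenomas, and none in the carcinomas, beta-catenin carcinomas or foci. Their mean level was 5.23 to 5.87 in frozen surrounding liver and 6.03 to 8.43 in the frozen adenomas, and 4.97 to 5.28 in FFPE surrounding liver and 5.17 to 6.23 in the foci. The part of these genes' cells and of proliferation in the Sox4 values was not tested.

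The 7 Sox4 probe sets did not behave as 1. Probe set 1373860_at rose in every comparison except the nodules, by 1.08 ± 0.19 in the adenomas (adjusted p = 0.000619), 1.20 ± 0.21 in the carcinomas, 1.49 ± 0.20 in the beta-catenin carcinomas, 1.58 ± 0.26 in the foci and 1.62 ± 0.29 in the FFPE adenomas (adjusted p = 0.0015; 0.0528 when only the 2 groups were fitted). All 5 FFPE adenomas were above all surrounding samples for it, as were 1.44% of all probe sets. Probe set 1384000_at rose by 1.66 ± 0.22 in the frozen adenomas (adjusted p = 4.18e-05) and in both carcinoma groups, by 1.15 and 1.18, but measured 0.39 ± 0.35 in the foci and 0.58 ± 0.39 in the FFPE adenomas, where it did not pass. Probe set 1393571_at passed against surrounding liver in the frozen adenomas alone, with a rise of 1.04 ± 0.16 (adjusted p = 0.000169). All 5 nodules also lay above every surrounding sample for it, as did 1.01% of all probe sets. So did 3 of 4 tumours in each carcinoma group. Its levels in frozen surrounding liver were low, 2.68 to 3.42, where the lowest value of any probe set was 2.14. Its difference between carcinomas and adenomas, -0.67, did not pass (adjusted p = 0.0611). Probe set 1375257_at passed in none of the 6 comparisons with surrounding liver, at changes between -0.12 and 0.14 and adjusted p-values from 0.615 to 0.971.

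Probe set 1383989_at showed smaller steps in frozen tissue and larger ones in FFPE tissue. It rose by 0.65 ± 0.12 in the frozen adenomas (adjusted p = 0.00102) and by 0.41 in the beta-catenin carcinomas (adjusted p = 0.0372), the second of which became 0.37 at an adjusted p of 0.177 when the block was the labelled control set and not the animal, and lost its call in 8 of 11 fits that left out 1 array. It measured 0.30 in the carcinomas, which did not pass. In the foci it rose by 1.27 ± 0.24 (adjusted p = 0.00181), but by 0.86 without surrounding replicate 4 (animal 7), at an adjusted p of 0.0730. In the FFPE adenomas it rose by 1.34 (adjusted p = 0.00497; 0.0546 without the mean-variance trend).

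**Figure D2:**
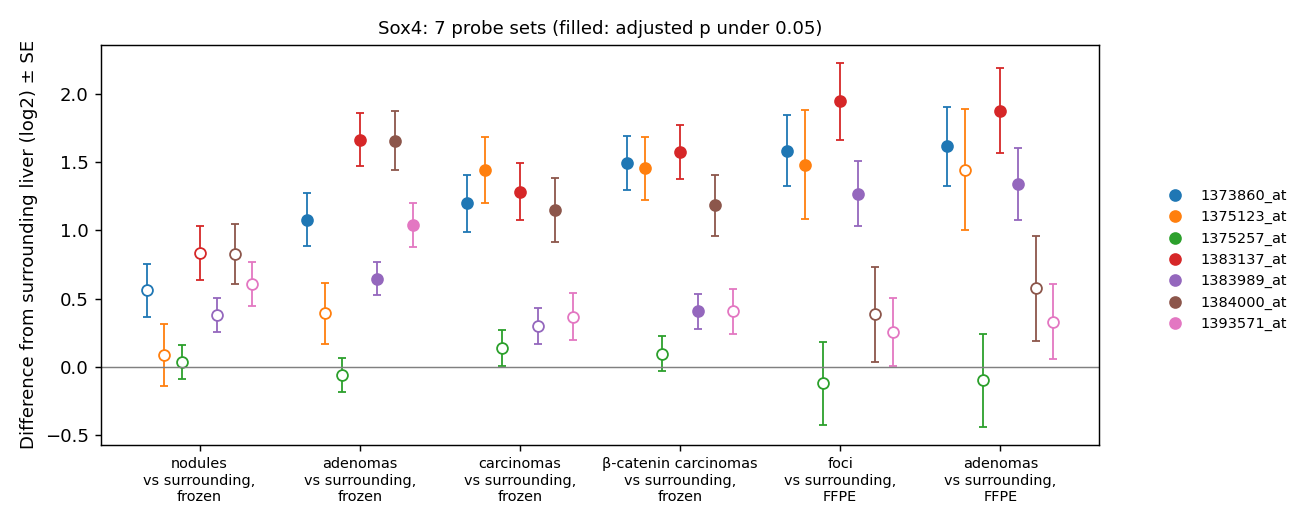
Difference from surrounding liver (log2, with SE) of the 7 Sox4 probe sets in 6 comparisons; filled points passed an adjusted p of 0.05 in limma. Probe set 1383137_at is filled in every comparison but the nodules, while 1375257_at stays between -0.12 and 0.14 and is open throughout.

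Probe set 1375123_at was the only one of the 15 to differ between lesion types, and its result depended on which surrounding samples it was set against. It measured 0.39 ± 0.23 in the frozen adenomas (adjusted p = 0.243) and rose by 1.45 ± 0.24 in the carcinomas (adjusted p = 0.000949) and by 1.45 ± 0.23 in the beta-catenin carcinomas (adjusted p = 0.000266). Carcinomas exceeded adenomas by 1.05 ± 0.28 (adjusted p = 0.0416), in a comparison where 3.67% of all probe sets passed and 2.27% rose. However, the 3 surrounding samples labelled as controls of carcinomas measured 5.79 to 6.29, with a mean of 6.02, and the 4 labelled as controls of nodules and adenomas measured 4.74 to 5.43, with a mean of 5.00. With the control set as the block, the adenoma change was 0.82 (adjusted p = 0.0128), the carcinoma change 1.03, the beta-catenin carcinoma change 0.98 and the difference between carcinomas and adenomas 0.21 (adjusted p = 0.950). That difference also lost its call in 6 of 10 fits that left out 1 array. In the foci this probe set rose by 1.48 ± 0.40 (adjusted p = 0.0478), a call lost in 10 of 13 fits that left out 1 array, at values from 0.84 to 1.97.

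Across the 26 frozen arrays of groups, 1383137_at followed 1373860_at and 1384000_at with a Pearson r of 0.92 each, 1383989_at with 0.83, 1393571_at with 0.73 and 1375123_at with 0.57, and 1375257_at with -0.05. The points of these correlations share lesion type and animal. The genes whose levels were most like Sox4 1383137_at over the same 26 arrays were Tmem109 (Pearson r 0.91, Spearman rho 0.88), Spcs1 (0.90 and 0.86), Tusc3 (0.89 and 0.85), Arl10 (0.88 and 0.89) and S100a10 (0.87 and 0.82). Spcs1 is a subunit of the signal peptidase complex, Tusc3 a subunit of the oligosaccharyltransferase, and S100a10 the partner of annexin A2. Over the 18 FFPE arrays the same pairs had r from 0.155 to 0.79.

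Gpc3 stood clear of the surrounding range in single lesions and not in a whole group. For probe set 1368395_at, frozen surrounding liver measured 3.46 at the lowest, 3.89 at the median and 4.38 at the highest. The 5 nodules measured 3.36, 4.06, 5.05, 7.64 and 4.14. The 6 adenomas measured 5.85, 6.85, 4.22, 4.11, 4.31 and 7.20. Nodule replicate 4 (animal 11) and adenoma replicates 1 and 2 (animal 14) and 6 (animal 23) thus stood clear of the surrounding range, while the other 3 adenomas lay within it. Set against the surrounding samples labelled as their controls, these 4 lesions differed by 3.87, 1.70, 2.71 and 3.74, and nodule replicate 3, also of animal 11, by 1.27. All 6 adenomas were above their own surrounding sample, adenoma replicates 3, 4 and 5 by 0.08, 0.65 and 0.85. Of all probe sets, 2.19% had at least 1 nodule, and 5.04% at least 1 adenoma, 2-fold or more above every surrounding sample.

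The spread of Gpc3 among lesions of 1 type was large for the array. Its SD of 1.67 among the nodules was exceeded by 0.158% of all probe sets, and its SD of 1.40 among the adenomas by 0.606%. As a group, the adenomas differed from surrounding liver by 1.58 ± 0.62 (2.99-fold), which did not pass (limma adjusted p = 0.0807). Without adenoma replicate 3 it was 1.83 at an adjusted p of 0.0430 and without replicate 4 it was 1.89 at 0.0474, and other arrays left out gave values down to 1.07 with no call. The nodules differed by 0.52 ± 0.63 (adjusted p = 0.812).

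None of the 8 carcinomas reached the Gpc3 level of those 4 lesions. Without the mutation label they measured 4.24, 3.90, 3.63 and 5.08, and the beta-catenin carcinomas 5.02, 4.03, 3.76 and 3.41. Carcinoma replicate 4 (animal 23) and beta-catenin carcinoma replicate 1 (animal 10) were above the surrounding range and the other 6 tumours were not. The changes of 0.59 (adjusted p = 0.674) and 0.40 (adjusted p = 0.761) did not pass, and the second was -0.08 without replicate 1. Carcinomas differed from adenomas by -0.99 ± 0.77, which did not pass either (adjusted p = 0.496). In FFPE tissue, surrounding liver measured 3.73, 4.97, 4.55 and 3.81, the foci 3.52 to 5.15 with a median of 4.36, and the adenomas 3.92, 6.11, 4.45, 4.23 and 4.81. Of the FFPE adenomas only replicate 2 (animal 10) was above all 4 surrounding samples, 2.38 above its own surrounding liver; 6.23% of all probe sets had at least 1 FFPE adenoma 2-fold or more above every surrounding sample. Of the foci, replicates 2 (5.03) and 7 (5.15) were above all surrounding samples as well, by 1.30 and 1.34 over their own. The FFPE changes of 0.14 in the foci and 0.36 in the adenomas did not pass (adjusted p = 0.938 and 0.867). The second Gpc3 probe set, 1396620_at, stayed between 2.92 and 3.52 in frozen surrounding liver and passed in no comparison.

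Markers of stroma and bile ducts were above the surrounding range in most frozen lesions with high Gpc3, and bile duct markers in the other adenomas too. The mean level of 15 stellate cell and fibroblast markers was 6.81 to 7.50 in surrounding liver, 8.23 in nodule replicate 4, and 8.0, 8.39 and 7.36 in adenoma replicates 1, 2 and 6. It was 7.09, 6.67 and 6.94 in adenoma replicates 3, 4 and 5, where Gpc3 was low, so adenoma replicate 6 and these 3 did not exceed the surrounding range. The mean of 6 cholangiocyte markers was 5.23 to 5.87 in surrounding liver, 7.87 in nodule replicate 4, 8.43, 8.36 and 7.20 in the 3 adenomas with high Gpc3 and 6.03 to 6.67 in the other 3. Beta-catenin carcinoma replicate 1, with Gpc3 at 5.02, had 8.02 and 7.87 for the same marker means. FFPE adenoma replicate 2, in contrast, had the lowest stromal mean of the 5 FFPE adenomas, 7.10. The part of these cell types in the Gpc3 values was not tested.

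**Figure D3:**
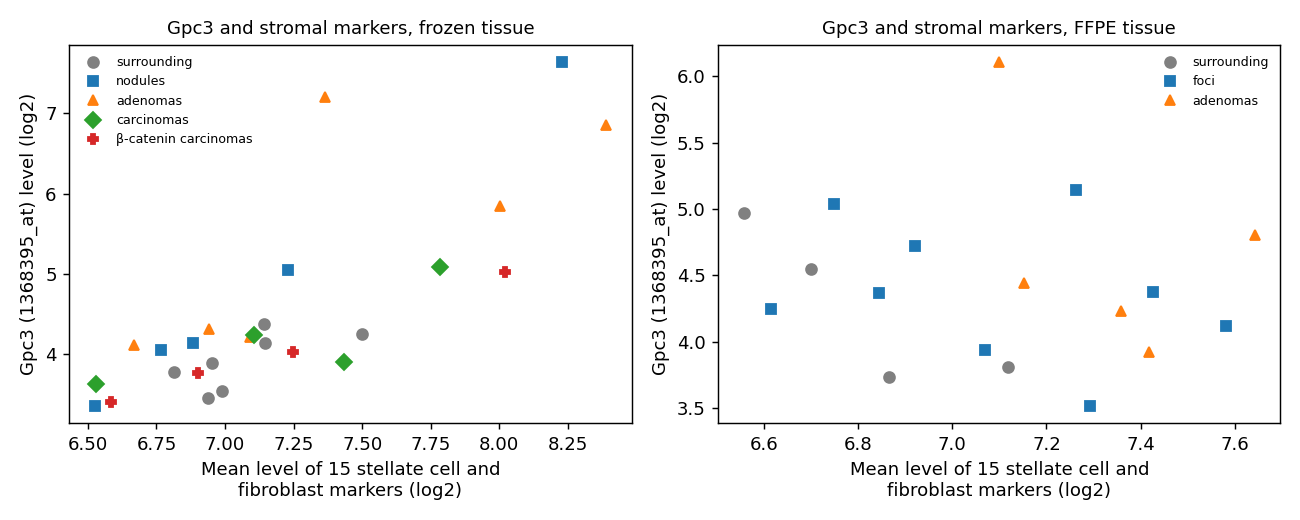
Level of Gpc3 (probe set 1368395_at, log2) against the mean level of 15 stellate cell and fibroblast markers (log2) in each array, frozen tissue on the left and FFPE tissue on the right; symbols give the group. The 4 frozen lesions above 5.8 lie to the right of most arrays, at marker means of 7.36 to 8.39, and the highest FFPE adenoma, at 6.11, lies at 7.10.

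The genes most like Gpc3 1368395_at over the 26 frozen arrays were Ifitm2 (Pearson r 0.92, Spearman rho 0.72), Emp3 (0.92 and 0.80), Col6a3 (0.91 and 0.78), Loxl1 (0.91 and 0.71) and Fhl2 (0.91 and 0.80). Col6a3 encodes a chain of collagen VI and Loxl1 an enzyme that cross-links elastin. Without the array with the highest Gpc3 the r values were 0.87 to 0.90, and in the FFPE arrays the same pairs had r from -0.10 to 0.33.

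Igf2 was lower in frozen tumours and high in a single FFPE adenoma. For probe set 1367571_a_at, frozen surrounding liver measured 5.34 at the lowest, 5.89 at the median and 6.48 at the highest. The 6 adenomas ranged from 4.97 to 5.60 with a median of 5.14, the carcinomas measured 5.45, 5.39, 5.11 and 5.29, and the beta-catenin carcinomas 5.38, 5.49, 5.06 and 5.20. Each of these 14 tumours was below the surrounding sample labelled as its control, although the groups overlapped. Carcinoma replicate 1, at 5.45, was above the other surrounding sample of animal 10, at 5.42. The nodules, at 5.24, 5.67, 5.97, 6.17 and 5.49, lay mostly within the surrounding range.

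By limma Igf2 1367571_a_at fell by 0.51 ± 0.17 in the adenomas (1.43-fold lower, adjusted p = 0.0419) and by 0.59 ± 0.18 in the beta-catenin carcinomas (adjusted p = 0.0309), and differed by -0.58 ± 0.18 in the carcinomas without passing (adjusted p = 0.0561). Of all probe sets, 8.59% fell in the adenomas and 6.81% in the beta-catenin carcinomas. The adenoma call depended on the block: with the control set as the block the value was -0.32 (adjusted p = 0.200). The carcinoma value was then -0.88 (adjusted p = 0.00495) and the beta-catenin carcinoma value -0.91 (adjusted p = 0.0019). Neither the adenoma call nor the beta-catenin carcinoma call held when only the 2 groups of a comparison were fitted, at -0.58 (adjusted p = 0.164) in the adenomas and -0.69 (adjusted p = 0.0925) in the beta-catenin carcinomas. The surrounding samples of carcinoma control sets measured 6.04 to 6.48 and those of nodule and adenoma control sets 5.34 to 5.89. The adenoma call was lost without surrounding replicate 2, 5 or 7 or adenoma replicate 2, 5 or 6, at adjusted p-values of 0.0571 to 0.148. The beta-catenin carcinoma call was lost without surrounding replicate 2, 5 or 7 or beta-catenin carcinoma replicate 3 or 4, at adjusted p-values up to 0.122. The nodules differed by -0.17 ± 0.17 (adjusted p = 0.779).

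In FFPE tissue no Igf2 comparison passed. Surrounding liver measured 5.31, 4.93, 5.88 and 5.09, the 9 foci 4.59 to 5.85 with a median of 5.57, and the adenomas 5.54, 5.67, 4.79, 8.49 and 5.79. Adenoma replicate 4 (animal 14), the sample whose source name reads surrounding tissue, was 3.56 above the surrounding liver of that animal and far above every other FFPE array. The adenoma change was 0.74 ± 0.49 (adjusted p = 0.693) with it and 0.16 without it. The foci differed by 0.25 (adjusted p = 0.898). The other 3 Igf2 probe sets passed in no comparison, and over the frozen arrays they followed 1367571_a_at with r of 0.03 (1371206_a_at), -0.35 (1388252_at) and 0.40 (1398322_at). The fall in the tumours and the high adenoma therefore rest on 1 of 4 probe sets.

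H19 differed from surrounding liver in no comparison, and it too had single high lesions. Probe set 1371298_at measured 5.30 at the lowest, 5.38 at the median and 5.81 at the highest in frozen surrounding liver, and 5.50, 5.69, 5.76, 6.80 and 5.43 in the nodules. The adenomas ranged from 4.81 to 5.61 with a median of 5.34, the carcinomas measured 5.60, 5.21, 5.38 and 5.20, and the beta-catenin carcinomas 5.33, 5.58, 5.53 and 5.44. Nodule replicate 4, the nodule with the highest Gpc3, was the only frozen lesion above the surrounding range, 0.99 above its own surrounding liver. The changes were 0.19 in the nodules, -0.05 in the adenomas, 0.0036 in the carcinomas and 0.15 in the beta-catenin carcinomas (limma adjusted p = 0.722, 0.877, 0.995 and 0.638).

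In FFPE tissue H19 measured 6.20, 5.79, 4.64 and 5.11 in surrounding liver and 4.64, 5.05, 4.52, 6.85 and 5.34 in the adenomas. The 9 foci ranged from 4.14 to 6.72 with a median of 4.92. The highest of the foci, replicate 8 (animal 7), was 1.60 above its own surrounding liver, and FFPE adenoma replicate 4 was high for H19 as it was for Igf2. The group changes of -0.31 and -0.24 did not pass (adjusted p = 0.861 and 0.933).

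**Figure D4:**
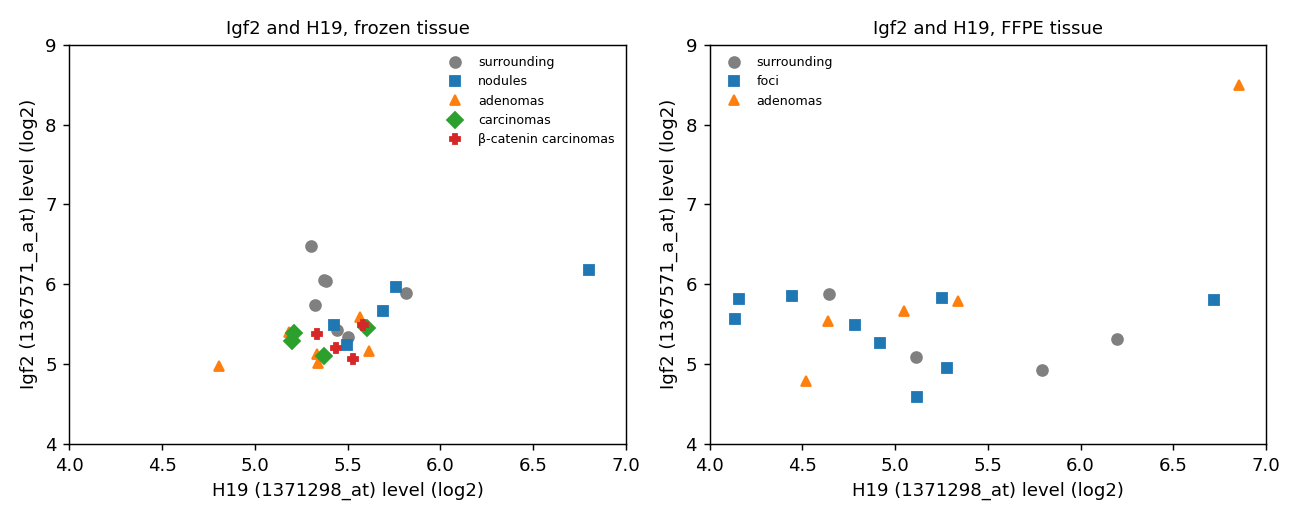
Level of Igf2 (probe set 1367571_a_at, log2) against the level of H19 (probe set 1371298_at, log2) in each array, frozen tissue on the left and FFPE tissue on the right; symbols give the group. Most arrays lie between 4.5 and 6.5 for Igf2; FFPE adenoma replicate 4 stands apart at 8.49 for Igf2 and 6.85 for H19, and nodule replicate 4 and foci replicate 8 are high for H19 at Igf2 levels of 6.17 and 5.80.

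Over the 26 frozen arrays Igf2 and H19 had a Pearson r of 0.44 and a Spearman rho of 0.30, and over the 18 FFPE arrays 0.42 and -0.04. The genes most like Igf2 1367571_a_at in frozen tissue were Pex16 (Pearson r 0.76), Mmrn1 (0.74), Dcxr (0.74), Slc43a1 (0.73) and Gstp3 (0.72), but over the FFPE arrays the same pairs had r from -0.54 to 0.02. Those most like H19 were Gnaz (0.83), Muc4 (0.82), Duox2 (0.80), Slc17a7 (0.79) and Slc51a (0.78). Without nodule replicate 4 the H19 values dropped to 0.49, 0.42, 0.21, 0.69 and 0.49, so this likeness rests largely on that lesion, and in FFPE tissue r was -0.54 to 0.24.

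Afp did not rise in any kind of lesion. Probe set 1367758_at measured 8.06 at the lowest, 8.40 at the median and 8.84 at the highest in frozen surrounding liver. The nodules measured 8.58, 8.32, 8.60, 8.40 and 8.33, and the adenomas ranged from 7.19 to 8.46 with a median of 7.67. None of the 5 nodules and 1 of the 6 adenomas was above the surrounding sample labelled as its control, and 4 adenomas were below every surrounding sample. The changes of 0.07 ± 0.43 and -0.72 ± 0.42 did not pass (limma adjusted p = 0.976 and 0.254).

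The carcinomas were spread on both sides of the surrounding liver for Afp. Those without the mutation label measured 7.78, 7.81, 8.51 and 6.64, and the beta-catenin carcinomas 5.89, 7.22, 8.47 and 9.05. The beta-catenin carcinomas of animal 23, replicates 3 and 4, were 0.40 and 0.98 above their own surrounding liver, while replicate 1 (animal 10) and replicate 2 (animal 21) lay below it, at differences of -2.34 and -0.95. This SD of 1.40 within the beta-catenin carcinomas was exceeded by 0.831% of all probe sets. The changes of -0.69 ± 0.45 in the carcinomas and -0.73 ± 0.44 in the beta-catenin carcinomas did not pass (adjusted p = 0.412 and 0.312), and the second was 0.02 without replicate 1, the lesion with Glul below the surrounding range.

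FFPE tissue gave Afp levels of 7.92, 7.53, 6.01 and 7.18 in surrounding liver, 6.08 to 7.64 with a median of 7.30 in the foci, and 6.73, 6.44, 7.46, 6.17 and 7.12 in the adenomas. Of the 9 foci 5 were above their own surrounding liver, and of the 5 adenomas none was. The largest differences were in foci replicates 4 and 5 (animal 18), at 1.45 and 1.62. Their surrounding sample, at 6.01, was the lowest of the FFPE surrounding samples, and none of the foci lay above all of these. The changes of -0.12 and -0.45 did not pass (adjusted p = 0.943 and 0.801). The genes most like Afp over the frozen arrays were Fggy (Pearson r 0.82, Spearman rho 0.75), Chpt1 (0.82 and 0.71), Xylt2 (0.80 and 0.75), Mtarc1 (0.79 and 0.76) and Phtf2 (0.78 and 0.66), with r of -0.05 to 0.39 over the FFPE arrays.

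**Figure D5:**
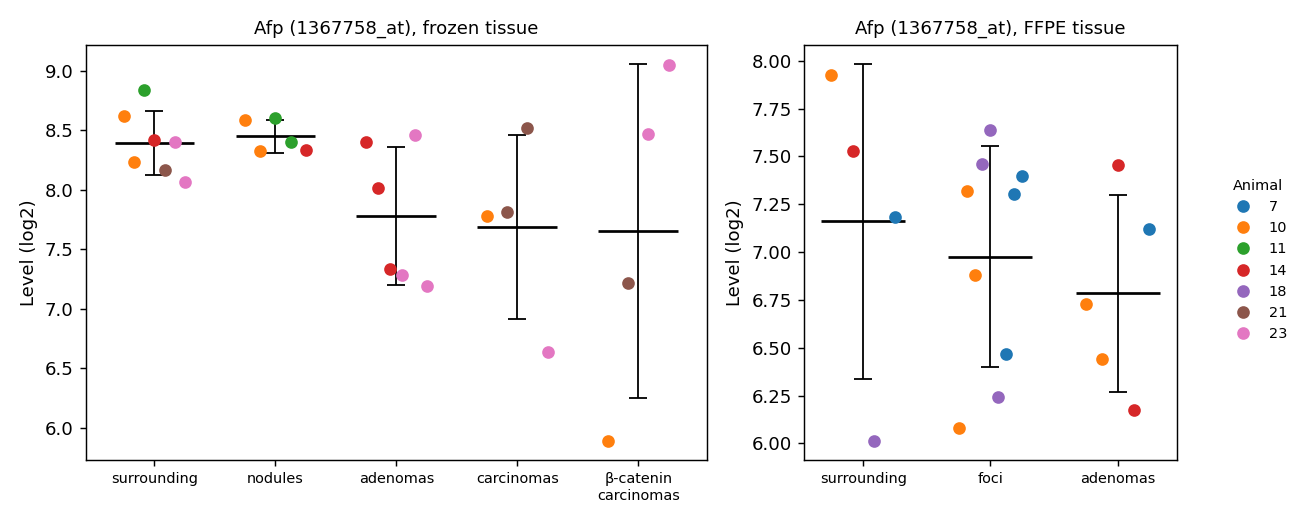
Level of Afp (probe set 1367758_at, log2) in every array of the groups, frozen tissue on the left and FFPE tissue on the right, coloured by animal; bars give the mean and SD of each group. The 5 nodules lie between 8.32 and 8.60 within the surrounding range, the adenomas reach down to 7.19, and the beta-catenin carcinomas spread from 5.89 to 9.05.

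Levels of the 5 genes in the same lesion differed. Nodule replicate 4 was the highest nodule for Sox4 1383137_at, Gpc3 1368395_at, Igf2 1367571_a_at and H19, at 10.58, 7.64, 6.17 and 6.80. It was the lowest nodule for another Igf2 probe set, 1388252_at, at 4.14, and held an Afp level of 8.40 within the surrounding range. It also differed from the median of the other nodules by 5.98 for Gabrp, 4.72 for Krt20, 4.42 for Tspan8, 4.32 for Msln and 4.06 for Plet1, genes of epithelia other than hepatocytes. These were picked from the 10 genes with the largest differences. The others were RGD1309362, the largest of all at -6.45, Sncg (4.935), Cpe (4.89), S100a6 (4.50) and Duox2 (4.20). FFPE adenoma replicate 4, high for Igf2 and H19, had Gpc3 at 4.23 within the surrounding range. It differed from the median of the other FFPE adenomas by 5.70 for Obp3, 5.25 for Star and -7.29 for Ugt2b. For Obp3, at 11.13, it was not alone, as another FFPE adenoma had 11.05. Nor was it alone for Ugt2b, at 5.03, as another FFPE adenoma was about as low or lower. Frozen adenoma replicate 1, also of animal 14, had Ugt2b at 5.18. Beta-catenin carcinoma replicate 4 had the highest Afp, 9.05, and the highest Sox4, 11.09, of its group, with Gpc3 at 3.41 below every surrounding sample.

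Genes around the 5 in their pathways were read from lists, where 1 probe set stood for each gene. Over all 14217 genes, 14.1% rose and 8.68% fell in the frozen adenomas, 3.95% and 6.09% in the carcinomas and 6.85% and 8.54% in the beta-catenin carcinomas. In FFPE tissue 1.6% rose and 1.05% fell in the foci and 1.16% and 0.682% in the adenomas, and the counts below are to be read against these shares. Of 14 measured genes at the Afp locus or known to control it, 0 rose and 7 fell in the frozen adenomas, with a median change of -0.42 against 0.02 over all genes. In both carcinoma groups 0 rose and 3 fell, in the foci 0 and 2, and in the FFPE adenomas 0 and 1. Onecut1, a liver transcription factor also called HNF6, fell by 2.81 ± 0.43 in the carcinomas (adjusted p = 0.000504), by 2.45 ± 0.41 in the beta-catenin carcinomas (adjusted p = 0.000438) and by 1.11 ± 0.25 in the foci (adjusted p = 0.0133; 0.0720 without the mean-variance trend, and lost without FFPE surrounding replicate 3 or 4). Zhx2, the postnatal repressor of Afp, was higher in carcinomas than in adenomas by 0.98 (adjusted p = 0.0280), a call lost with the control set as the block, at 0.26 and an adjusted p of 0.915, and with only the 2 groups fitted (0.97, adjusted p = 0.127).

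Of 17 measured genes of the insulin-like growth factor axis, 0 rose and 5 fell in the frozen adenomas, 2 rose and 4 fell in the carcinomas and 2 rose and 3 fell in the beta-catenin carcinomas. In the foci and in the FFPE adenomas 1 rose and 0 fell. The members that fell were 29.4% in the adenomas, 23.5% in the carcinomas and 17.6% in the beta-catenin carcinomas, beside 8.68%, 6.09% and 8.54% of all genes, and those that rose in the carcinomas 11.8% beside 3.95%. Igfals, the carrier subunit that holds circulating growth factor in its large complex, fell by 2.25 ± 0.31 in the adenomas (adjusted p = 6.82e-05), and Igf1 fell by 1.74 ± 0.45 in the carcinomas (adjusted p = 0.0203). Igfbp3, a binding protein of both growth factors, rose by 1.54 ± 0.45 in the carcinomas (adjusted p = 0.0378) and by 1.28 ± 0.27 in the foci (adjusted p = 0.00607; 0.153 with no block). With the control set as the block the carcinoma calls of Igf1 and Igfbp3 were lost (adjusted p = 0.0551 and 0.133), and both were also lost without carcinoma replicate 1, among other arrays. Igf2r, the receptor that clears Igf2, rose by 0.88 ± 0.20 in the carcinomas and 1.13 ± 0.19 in the beta-catenin carcinomas (adjusted p = 0.0095 and 0.000498); it was named after its values were seen.

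Of 18 measured imprinted genes besides H19 and Igf2, 2 rose and 1 fell in the frozen adenomas, 0 and 2 in the carcinomas, 2 and 2 in the beta-catenin carcinomas, 0 and 1 in the foci and 1 and 1 in the FFPE adenomas, where 14.1% and 8.68% of all genes rose and fell in the frozen adenomas and 3.95% and 6.09% in the carcinomas. Slc38a4, an amino acid transporter, fell by 1.92 in the carcinomas (adjusted p = 0.0297; 0.0696 with the control set as the block, and lost without carcinoma replicate 1, 3 or 4 or frozen surrounding replicate 5 or 6) and by 2.56 in the beta-catenin carcinomas (adjusted p = 0.00206). Of 14 measured glypicans and heparan sulfate enzymes none rose, and 3, 2, 2 and 1 fell in the adenomas, carcinomas, beta-catenin carcinomas and foci, beside 8.68%, 6.09%, 8.54% and 1.05% of all genes. Sulf2, which removes sulfate groups from heparan sulfate, fell by 1.61 in the carcinomas (adjusted p = 0.0175; lost without carcinoma replicate 1 or frozen surrounding replicate 5) and by 1.51 ± 0.27 in the foci (adjusted p = 0.00124). Of 10 other measured Sox genes, Sox17 (0.83) and Sox18 (0.51) rose in the adenomas and the other 8 did not pass. Both act in endothelial cells. Of 8 endothelial markers 1 rose in these adenomas, 12.5% beside 14.1% of all genes. Sox18 also rose in the beta-catenin carcinomas, and Sox2, a factor of stem cells, fell by 0.43 in the carcinomas. Sox17, Sox18 and Sox2 were named after their values were seen.

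Other oncofetal and progenitor genes also moved one by one. Of 19 measured, 2 rose and 1 fell in the frozen adenomas, 2 and 1 in the carcinomas, 4 and 1 in the beta-catenin carcinomas, 2 and 0 in the foci and 3 and 0 in the FFPE adenomas. Among all genes 14.1%, 3.95%, 6.85%, 1.6% and 1.16% rose in these comparisons, so the 10.5% of members that rose in the frozen adenomas is below the share of all genes. Bex1, a small protein of neural and progenitor cells, rose by 4.02 ± 0.88 in the frozen adenomas (adjusted p = 0.00318), 5.73 ± 0.94 in the carcinomas (adjusted p = 0.000911), 6.19 ± 0.91 in the beta-catenin carcinomas (adjusted p = 0.000115) and 2.60 ± 0.53 in the FFPE adenomas (adjusted p = 0.00687; lost without FFPE surrounding replicate 2, at 1.94 and 0.212). Cd24 and Cd44, surface proteins of progenitor cells, rose by 2.29 and 1.96 in the beta-catenin carcinomas, calls lost with the control set as the block (adjusted p = 0.143 and 0.0987), and the Cd24 call also with no block and without replicate 1. Spink1, of the same list, went the other way and fell by 1.88 ± 0.33 in the carcinomas (limma adjusted p = 0.00123).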

How the data were processed

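The values were the log2 levels per probe set that the authors deposited for 47 Affymetrix rat arrays with 1 sample each; the background correction, summarization and normalization behind them are not given in the sources used here. Array medians were 5.49 to 5.59 over the 28 frozen arrays and 5.58 to 5.68 over the 19 FFPE arrays, and no 2 arrays were identical. On such arrays the number of arrays, not a read depth, limits the precision. Gene names came from the platform annotation, in which 20826 probe sets had 1 symbol, 436 had several and 9780 had none. The 15 probe sets examined each had 1.

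Models were fitted to all probe sets, frozen and FFPE arrays apart, using limma 3.58.1 (lmFit, eBayes with a mean-variance trend; R 4.3.3), with all groups of a fixation and the animal as a fixed block. P-values were adjusted by Benjamini-Hochberg over all 31042 probe sets within a comparison, and an adjusted p under 0.05 passed. The block comes from the animal that the labels give for each sample; the labels also give each lesion a control set, which replaced the animal in 1 alternative. The fit was tested on simulated data. Changes are therefore within animals and can differ from differences between group means. Levels of single lesions were set against the surrounding liver of their own control set.

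The genes and lists were chosen with earlier results of these data known. All probe sets of the 5 genes were named; from the other lists at most the 10 genes per comparison with the largest change among those that passed; and beside each of the 5 the 5 genes with the highest Pearson r over the 26 frozen arrays of groups. For genes in lists, the probe set with the highest mean was used. A group of 4 to 10 samples was searched for an outlying value with Dixon's rule.

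Alternatives were no block, the control set as block, the animal as a random block, no trend, quantile normalization, the 25% of probe sets with the lowest means left out, 1 probe set per gene, only the 2 groups of a comparison, and each array left out in turn.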

Additional observations from a re-analysis of the deposited data

Results flagged for a closer look

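Within each group of 4 to 10 samples, a value was marked where the highest or lowest sample stood far from its nearest neighbour relative to the range of the group. Of 120 groups and probe sets searched 10 were marked, and chance marks about 1 in 20.

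Of these, 4 were lesions far above their group for Igf2 or H19. FFPE adenoma replicate 4 had Igf2 1367571_a_at at 8.49, with the next adenoma at 5.79. Nodule replicate 4 had H19 at 6.80, with the next nodule at 5.76, and foci replicate 8 had H19 at 6.72, with the next of the foci at 5.28. FFPE adenoma replicate 2 had a second Igf2 probe set, 1388252_at, at 6.29, with the next adenoma at 4.95. That value lay within the FFPE surrounding range of this probe set, 5.08 to 6.67.

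Beta-catenin carcinoma replicate 4 was high for the Sox4 probe sets 1373860_at, at 9.24 against 8.66 for the next, and 1384000_at, at 7.46 against 6.72. The remaining marks were small steps. They were Gpc3 1396620_at at 3.24 in carcinoma replicate 4, H19 at 5.81 in frozen surrounding replicate 3, Igf2 1371206_a_at at 5.25 in carcinoma replicate 3, and the same Igf2 probe set at its lowest, 4.57, in frozen adenoma replicate 1.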

How the results depend on the processing

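Counts of the 5 genes with a probe set that passed were 2 in the frozen adenomas, 1 in the carcinomas, 2 in the beta-catenin carcinomas, 1 each in carcinomas against adenomas, foci and FFPE adenomas, and 0 elsewhere. With no replicate block, the counts became 1 in the nodules and 1 in adenomas against nodules. With the animal as a random block, they were 1 in the nodules, 2 in the carcinomas and 1 in adenomas against nodules. With the control set as the block, the count was 1 in the adenomas, 2 in the carcinomas and 0 in carcinomas against adenomas. With 1 probe set per gene it was 2 in the carcinomas and 0 in carcinomas against adenomas. It was also 2 in the carcinomas with the dimmest 25% left out or quantile normalization, and 1 in the adenomas and 1 in the beta-catenin carcinomas with only the 2 groups fitted. Leaving out 1 array gave 1 to 3 in the adenomas, 1 to 2 in the carcinomas, 1 to 2 in the beta-catenin carcinomas and 0 to 1 in carcinomas against adenomas. The cause was not tested.

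Sign changes concerned values that had not passed. H19 in the carcinomas was -0.10 with no replicate block, -0.0067 with the control set, -0.0915 with a random block, -0.0189 after quantile normalization and -0.0014 with only the 2 groups. With the control set, Igf2 1367571_a_at in the nodules was 0.10, Afp in the nodules -0.23 and Gpc3 in the beta-catenin carcinomas -0.12, and with only the 2 groups Afp in the nodules was -0.11. Leaving out 1 array moved Afp from -0.072 to 0.22 in the nodules, -1.19 to 0.0219 in the beta-catenin carcinomas and -0.63 to 0.25 in the foci. It moved Gpc3 from -0.24 to 0.83 in the nodules, -0.079 to 0.64 in the beta-catenin carcinomas, -0.16 to 0.42 in the foci and -0.069 to 0.84 in the FFPE adenomas. It moved H19 from -0.14 to 0.0665 in the frozen adenomas, -0.11 to 0.0457 in the carcinomas, -0.58 to 0.19 in the foci and -0.56 to 0.26 in the FFPE adenomas.

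Of 346 values of the 5 genes under the alternatives other than leaving out arrays, 322 kept direction and call, 9 lost a call, 6 gained one and 9 changed sign. Of 427 such values of the other named genes 49 lost their call, and when 1 array was left out 79 of 630 did.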

Other observations

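The 3 arrays from the source C43-Normal, whose group the labels do not explain, had Sox4 1383137_at at 8.32 and 8.38 in frozen tissue and 4.92 in FFPE tissue, below every surrounding sample of the same fixation. Their other levels were 8.66, 8.58 and 7.72 for Afp, 4.12, 4.05 and 4.78 for Gpc3 1368395_at, 5.70, 6.02 and 5.43 for Igf2 1367571_a_at and 5.61, 5.35 and 5.09 for H19. All of these lay within the range of the surrounding liver of the same fixation.

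In animal 14, titles give the same lesion number to a frozen and an FFPE adenoma in 2 cases. For the lesion numbered T4, Gpc3 1368395_at was 2.71 above the surrounding liver in the frozen piece (replicate 2) and differed by -0.52 in the FFPE piece (replicate 3). For T5, Igf2 1367571_a_at differed by -0.22 in the frozen piece (replicate 3) and was 3.56 above the surrounding liver in the FFPE piece (replicate 4). Sox4 1383137_at was above it in all 4 pieces, by 1.68 and 0.68 for T4 and by 1.46 and 1.60 for T5. Whether the pieces come from 1 lesion is not stated.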
